A study of Mus musculus with 35 samples.

Results

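The genes described here build the mitotic spindle, attach chromosomes to it and pull the copies apart. They are 44 genes chosen by name, from mitotic cyclins and kinases to kinesins and condensin subunits, out of 27012 genes in the deposited table. All 44 were found there by symbol. They were chosen with earlier results of these data known, so their counts are not an independent test. As background, a cell enters mitosis when CDK1, bound to a B-type cyclin, switches on. Kinetochores, built on centromeres that carry the histone variant CENP-A, then attach to spindle microtubules, and the spindle checkpoint delays anaphase until every chromosome is attached. The anaphase-promoting complex next marks securin and cyclin B for destruction, separase opens the cohesin rings, and cytokinesis divides the cell. Most of these genes are transcribed in late S, G2 and M phase, so their mRNA is low in resting tissue. Adult mouse cardiomyocytes have mostly left the cell cycle, whereas fibroblasts, endothelial cells and leukocytes of the heart can divide.

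Polyadenylated RNA of the mouse heart apex was sequenced 3 days after surgery, and the mice, of strain C57Bl/6/FVB, were operated on at 6 weeks of age. The surgery was transaortic constriction (TAC, a band around the aorta that raises the pressure load of the left ventricle) or a sham operation. IRS1KO mice carried floxed Irs1 and IRS2KO mice floxed Irs2, both with alphaMHC-Cre, a transgene driven by a cardiomyocyte promoter, so that the other cells of the heart keep the gene. WT mice carried floxed Irs2 alleles and no Cre recombinase. Irs1 and Irs2 encode adaptor proteins of the insulin and IGF1 receptors. There were 6 IRS1KO TAC, 6 IRS1KO sham, 6 IRS2KO TAC, 6 IRS2KO sham, 5 WT TAC and 6 WT sham libraries. No group carried Cre alone or floxed Irs1 without Cre. Whether every library is a separate mouse is not stated in the labels, so p-values measure the spread between libraries, which may be technical in part.

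The libraries held 11707111 to 14609467 reads assigned to genes. Irs1 averaged 27.4 ± 27.4 and 25.9 ± 15.1 normalized counts (mean ± SD over 6 libraries, or 5 for WT TAC, here and for all means) in IRS1KO TAC and IRS1KO sham libraries, against 181 ± 40.6 in WT TAC and 233 ± 52.5 in WT sham. Irs2 averaged 121 ± 41.2 in IRS2KO TAC and 123 ± 14.4 in IRS2KO sham, against 239 ± 68.6 in WT TAC and 217 ± 174 in WT sham (limma adjusted p for IRS2KO against WT = 0.695 after TAC and 1 in sham), with overlapping groups. All 12 cardiomyocyte markers, Myh6 and Tnnt2 among them, were detected in every group. WT TAC replicate 2 and IRS2KO TAC replicates 1 and 4 had the mitotic levels nearest to sham, and results that rest on these 3 libraries are given with and without them. Because they were chosen for these levels, leaving them out has to raise the mean mitotic levels of IRS2KO TAC and WT TAC.

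After TAC, 42 of the 44 genes were higher than sham in IRS1KO, 42 in IRS2KO and 41 in WT, and 1, Pttg1, was lower in each. A call is a limma adjusted p under 0.05 over the 13695 genes with a mean of at least 10 over all libraries. The background was high: 32.4% of genes tested were called higher and 31.7% lower in IRS1KO, 31.3% and 31.1% in IRS2KO, and 28.3% and 26.6% in WT. The split of all genes depended on scaling: 4442 were higher and 4335 lower in IRS1KO, 4286 and 4260 in IRS2KO, and 3877 and 3638 in WT. With the same total per library, of 13746 genes, 7226 were higher and 2154 lower in IRS1KO, 7483 and 1881 in IRS2KO, and 6265 and 1575 in WT; Pttg1 was still lower and the other called genes still higher. The median log2 fold change of the 44 genes, TAC over sham, was 3.86 in IRS1KO, 3.75 in IRS2KO and 3.58 in WT, beside medians over all genes tested of -0.01 in each genotype. Every TAC library lay above every sham library for 41 of the 44 in IRS1KO, 41 in IRS2KO and 40 in WT, where 20.5%, 15.7% and 17.2% of all genes tested did so. Without the 3 TAC libraries nearest to sham, the counts called higher stayed 42, 42 and 41. In RNA from whole tissue, more dividing cells and more mitotic mRNA per cell cannot be told apart.

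All 44 genes passed the filter, the lowest with a mean of 11.6 over the 35 libraries. For 24 of them the mean over the 18 sham libraries was under 10, so they passed through the TAC libraries, where they were high. The counts, medians and library orders above include these 24, which had to be higher in TAC on average. For them the counts describe the genes that passed and support nothing further. The other 20 passed on their sham level too. Among the genes called higher whose sham mean was at least 3, the ratio of the TAC mean to the sham mean ran from 2.06 to 43.8 over 36 genes in IRS1KO, from 1.40 to 34.6 over 37 in IRS2KO and from 2.70 to 33.9 over 32 in WT. No ratio is given where the sham mean was under 3.

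**Figure D1:**
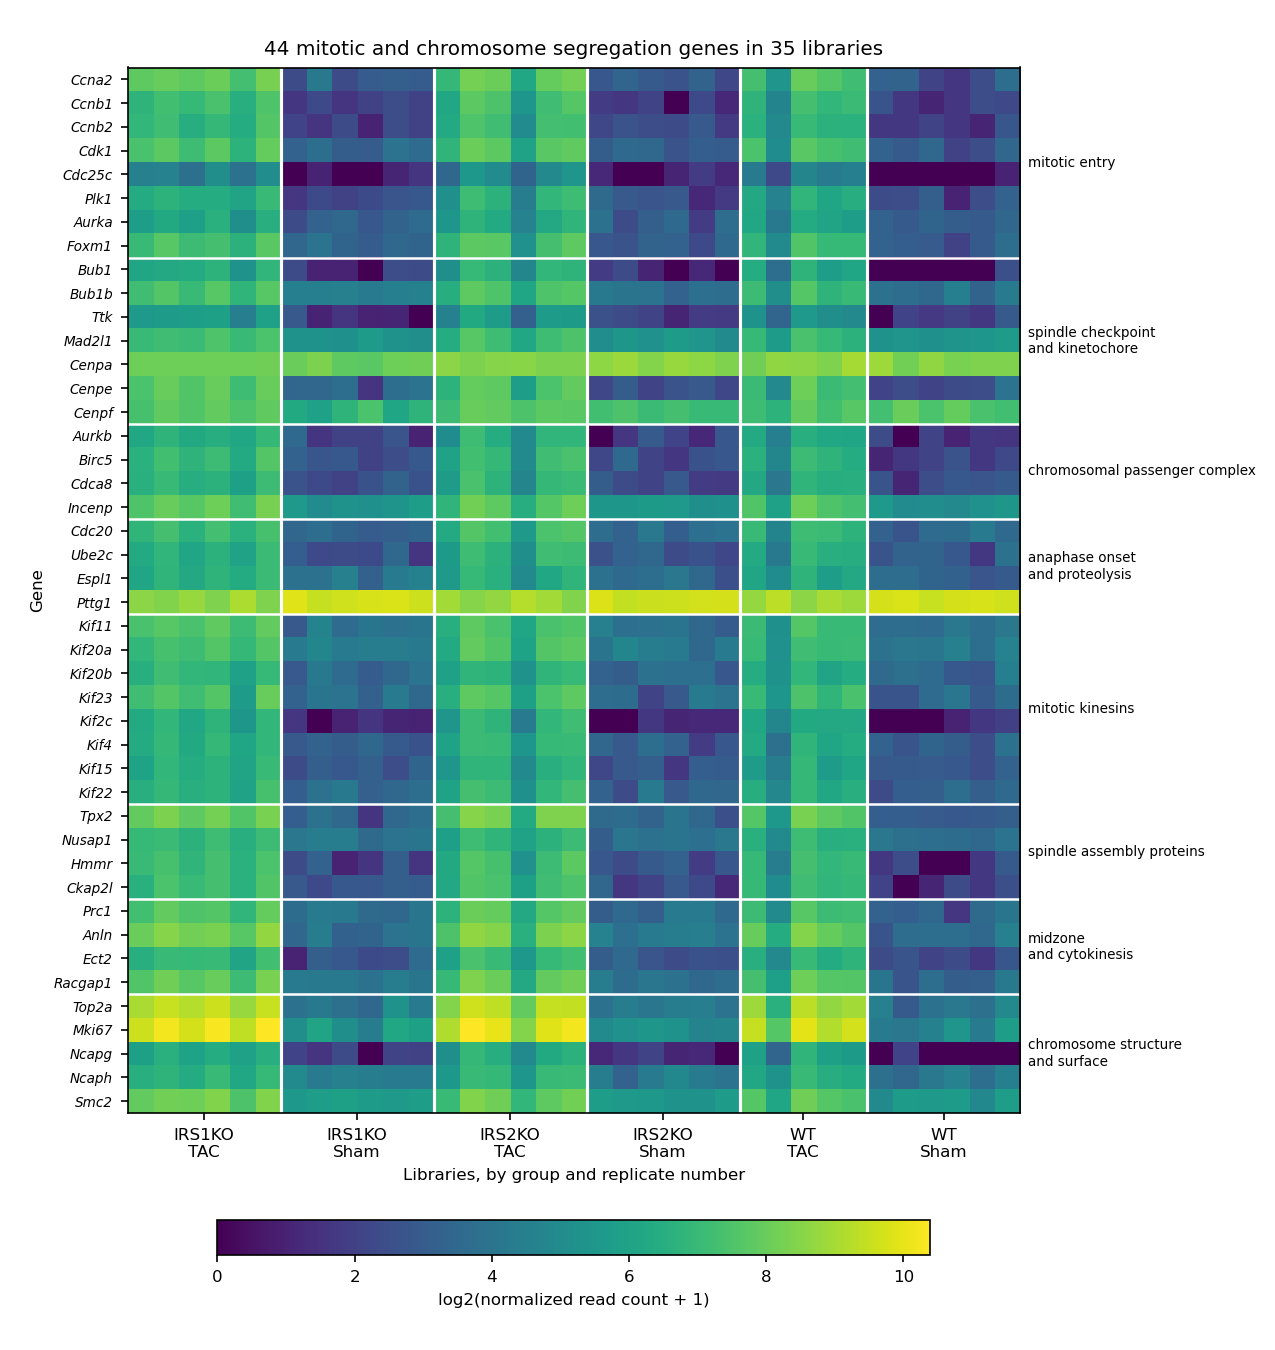
Levels of the 44 genes in the 35 libraries, as log2(normalized read count + 1) on the colour scale, with genes in rows by role and libraries in columns by group and replicate number. Most rows are dark in the 3 sham blocks and bright in the 3 TAC blocks, while Pttg1 and Cenpa are bright throughout and WT TAC replicate 2 and IRS2KO TAC replicate 4 are darker than their neighbours.

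The promoters of 5 of these genes were looked at, 1 for each of 5 roles, because genes of late G2 are known as a class to share a pair of promoter elements, CCAAT boxes and the cell cycle genes homology region (CHR). The 3 sequences below are the 250 bases before the RefSeq start on GRCm38.p6, written 5′ to 3′ on the gene's strand, with CCAAT and TTTGAA, the motifs found, in capitals on either strand (on the other strand they read ATTGG and TTCAAA). They belong to Cdk1 (mitotic kinase, chr10:69352913-69353162, minus strand), Mki67 (surface coat of mitotic chromosomes, chr7:135716380-135716629, minus strand) and Birc5 (survivin, chr11:117848987-117849236, plus strand).
Cdk1: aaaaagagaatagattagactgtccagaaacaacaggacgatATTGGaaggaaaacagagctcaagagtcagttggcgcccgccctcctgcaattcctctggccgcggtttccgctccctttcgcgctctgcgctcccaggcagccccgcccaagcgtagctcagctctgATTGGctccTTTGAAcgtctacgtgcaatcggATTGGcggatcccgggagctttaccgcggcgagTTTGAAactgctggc
Mki67: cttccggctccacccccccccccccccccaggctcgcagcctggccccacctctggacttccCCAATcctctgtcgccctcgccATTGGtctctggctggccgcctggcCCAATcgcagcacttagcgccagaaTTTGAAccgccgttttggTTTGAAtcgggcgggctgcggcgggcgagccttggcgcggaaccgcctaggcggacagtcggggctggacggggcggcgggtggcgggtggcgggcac
Birc5: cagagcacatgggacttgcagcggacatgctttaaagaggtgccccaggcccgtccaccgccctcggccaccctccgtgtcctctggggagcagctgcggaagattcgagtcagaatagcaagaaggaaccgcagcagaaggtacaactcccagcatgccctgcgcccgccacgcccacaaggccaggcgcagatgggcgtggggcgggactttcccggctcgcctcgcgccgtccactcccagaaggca
Cdk1 and Mki67 each held 3 CCAAT and 2 TTTGAA matches, and Birc5 held neither motif in this window. The Cenpa window held 2 CCAAT, with a CHR match downstream of the start, and the Pttg1 window held neither; they overlap annotated exons by 109 and 195 bases and are not printed. The Cdk1 window overlaps an annotated exon by its last 26 bases, which hold the TTTGAA nearest the start, and the other printed windows by 0. RefSeq promoters were matched by symbol for 37 of the 44 genes, and not for Foxm1, Ccna2, Kif20a, Aurkb, Incenp, Cdc25c and Tpx2. The windows searched hold 250 bases before and 50 after the start, on both strands, and the motifs CCAAT and TTTGAA or TTCGAA were counted separately, so that matches may overlap. At least 2 CCAAT were found in 18 of the 37 (48.6%), against 13.3% of all 27025 genes with a promoter, and TTTGAA or TTCGAA in 30 of the 37 (81.1%), against 21.7%. Both conditions held for 17 of the 37 (45.9%) and for 3.08% of all genes. Of 44 other mitotic genes with a promoter, 13 (29.5%) met both. A match is a string of letters, not a bound site.

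Mitotic entry was represented by 8 genes, and all 8 were higher after TAC in all 3 genotypes. For all 8 the mean over the sham libraries was under 10, so they passed the filter through the TAC libraries. The count and the p-values below therefore describe genes that had to be higher on average, and support nothing further. CDK1 is the kinase that drives mitosis. Cdk1 had a lowest, median and highest of 103, 192 and 240.1 normalized counts in IRS1KO TAC, against 7.14, 9.998 and 14.7 in IRS1KO sham, and of 62.1, 215 and 265 in IRS2KO TAC, against 5.39, 7.54 and 10.6 in IRS2KO sham. In WT TAC the values were 172, 32.6, 210.0, 163 and 148, against 3.16, 7.69 and 10.2 in WT sham. The groups did not overlap in any genotype, although WT TAC replicate 2, at 32.6, stood far below the other 4. The log2 fold changes of 4.00 ± 0.35 in IRS1KO, 4.22 ± 0.35 in IRS2KO and 4.02 ± 0.37 in WT (TAC over sham, ± SE, as for all fold changes) had adjusted p of 8.35e-11, 3.79e-11 and 3.64e-10. The ratios of means were 17.6, 22.7 and 20.3.

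The cyclins that bind CDK1 were higher too. Ccnb1 had 108, 24.96, 161, 117 and 133 normalized counts in WT TAC, against a lowest, median and highest of 1.13, 3.04 and 5.48 in WT sham. This gene, for cyclin B1, was at a few normalized counts in sham hearts and lay above every sham value in every TAC library. Its log2 fold changes were 5.05, 5.47 and 4.58 in IRS1KO, IRS2KO and WT, and the ratio of means in IRS1KO was 43.8, the largest among the ratios given. Ccna2 (cyclin A2) averaged 158 ± 75.6 in WT TAC against 6.69 ± 4.01 in WT sham, and Ccnb2 (cyclin B2) 90.98 ± 36.7 against 2.81 ± 1.64 (SD, n = 5 and 6).

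The remaining genes of entry act on CDK1 or beside it. Cdc25c encodes a phosphatase that activates CDK1, and it was at 0 in 5 of 6 WT sham libraries, with 3.84 to 25.2 normalized counts in WT TAC. Plk1 and Aurka encode the kinases polo-like 1 and Aurora A, which act at centrosomes, and had log2 fold changes of 4.19 and 2.88 in IRS1KO, 3.74 and 2.96 in IRS2KO, and 3.60 and 2.58 in WT. Foxm1, the transcription factor that switches on many G2 genes, averaged 116 ± 56.8 in WT TAC against 7.63 ± 3.08 in WT sham (ratio 15.2). Across the 8 genes the log2 fold changes ran from 2.58 to 4.58 in WT, with Aurka lowest and Ccnb1 highest.

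The spindle checkpoint and kinetochore group held 7 genes, and it held most of the exceptions: 6 were higher in each knockout, and 5 in WT. For 3 of the 7 (Bub1, Ttk and Cenpe) the mean over the sham libraries was under 10. These 3 had to be higher in TAC on average. Bub1, a checkpoint kinase at kinetochores, had 85.3, 12.5, 107, 55.2 and 69.4 normalized counts in WT TAC and was at 0 in 5 of 6 WT sham libraries. All WT TAC libraries were above the single sham library with reads, at 4.85. Bub1b (BUBR1) and Ttk (MPS1) are further checkpoint kinases, and Cenpe is a kinetochore motor. Their log2 fold changes in IRS1KO were 2.86, 4.31 and 4.37, in IRS2KO 3.37, 3.25 and 4.73, and in WT 2.88, 3.12 and 4.31. Mad2l1, which blocks the anaphase activator CDC20, was already measurable in sham. Mad2l1 had 122, 51.8, 168, 124 and 100.97 normalized counts in WT TAC, against a lowest, median and highest of 36.3, 40.97 and 51.4 in WT sham. The lowest TAC value, again from replicate 2, was just above the highest sham value. The ratio of means was 3.74 in IRS1KO, 3.48 in IRS2KO and 2.70 in WT.

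Cenpa encodes the centromeric histone H3 variant that marks where the kinetochore forms, and it was called neither higher nor lower after TAC in any genotype. Cenpa had a lowest, median and highest of 269.7, 273 and 282 normalized counts in IRS1KO TAC, against 213, 265 and 325 in IRS1KO sham, and of 321, 345 and 380.4 in IRS2KO TAC, against 329.8, 397 and 449 in IRS2KO sham. In WT TAC the values were 282, 401, 387, 333 and 511, against 289, 333 and 468 in WT sham. TAC and sham values overlapped in all 3 genotypes, and the 6 IRS1KO TAC values lay within a narrow band. The log2 fold change was 0.08 (95% interval -0.15 to 0.31, adjusted p = 0.559) in IRS1KO, -0.18 (-0.41 to 0.06, adjusted p = 0.178) in IRS2KO and 0.09 (-0.15 to 0.34, adjusted p = 0.531) in WT. With libraries scaled to the same total, which moved the median of all genes to 0.30 in IRS1KO, 0.33 in IRS2KO and 0.24 in WT, Cenpa was called higher in IRS1KO (0.39) and WT (0.35), and its value turned to 0.16 in IRS2KO.

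Cenpf encodes a large kinetochore and nuclear matrix protein that accumulates in G2. Cenpf had a lowest, median and highest of 163, 211 and 235 normalized counts in IRS1KO TAC, against 61.02, 92.7 and 172 in IRS1KO sham, and of 139.5, 217 and 251 in IRS2KO TAC, against 128, 144 and 179 in IRS2KO sham. In WT TAC the values were 143, 103, 239.7, 149 and 208, against 149, 172 and 256 in WT sham. TAC and sham values overlapped in every genotype. The gene was called higher in IRS1KO, by a log2 fold change of 1.11 ± 0.20 (adjusted p = 1.65e-05), and in IRS2KO, by 0.47 ± 0.20 (adjusted p = 0.0424). The call in IRS2KO was lost in 8 of the 12 fits that left out 1 of its libraries, with adjusted p up to 0.0978 (without IRS2KO TAC replicate 2), and without a filter on low genes (0.0653). In WT the log2 fold change was -0.21 (-0.63 to 0.22, adjusted p = 0.412), and it turned to 0.05 with the same total per library.

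**Figure D2:**
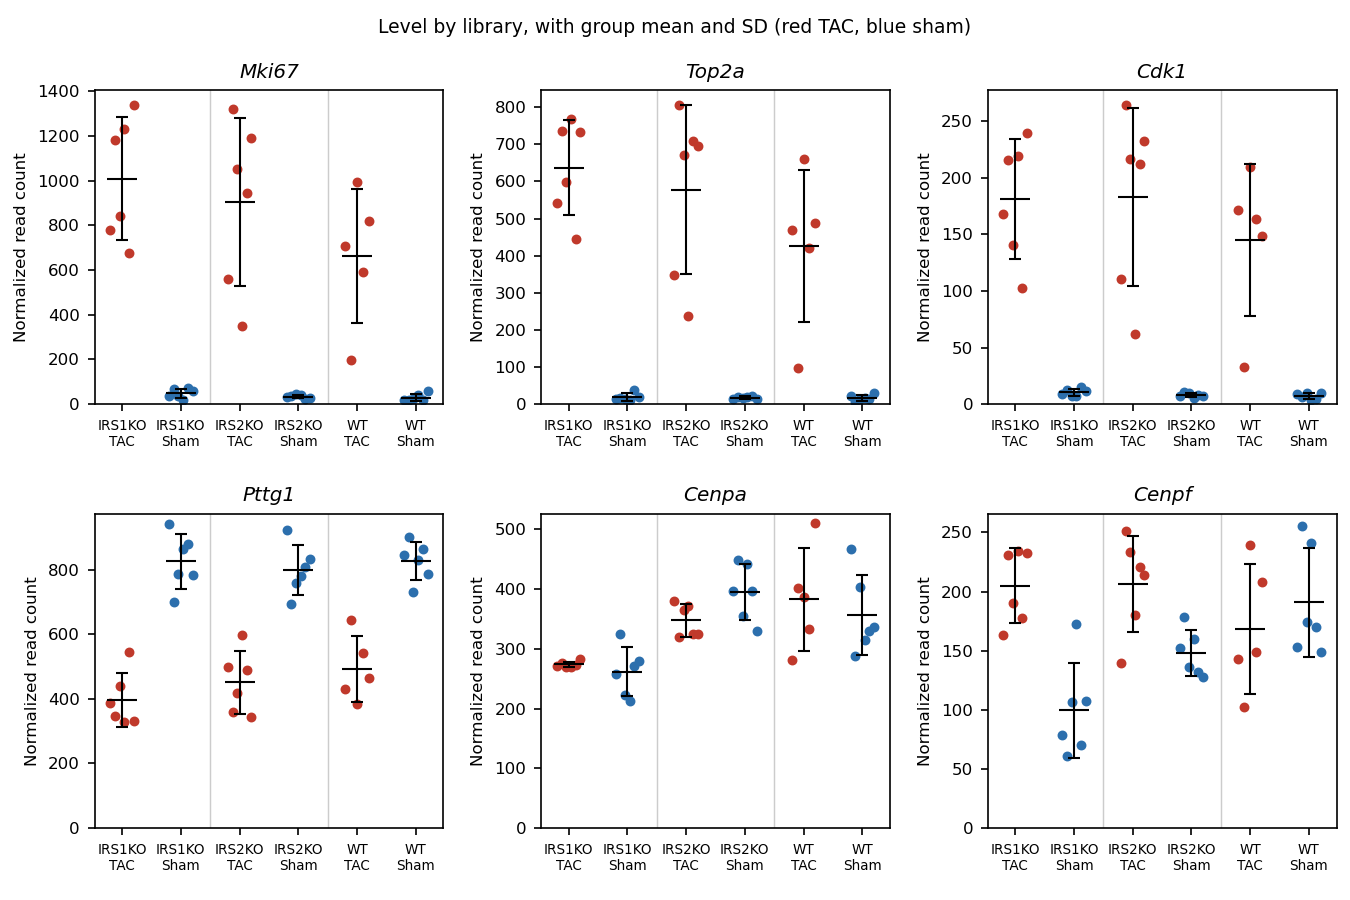
Normalized read counts of 6 genes in each library (points, red TAC, blue sham), with group means and SD (black bars), by genotype. Mki67, Top2a and Cdk1 are high in the TAC groups and low in sham, Pttg1 is lower in TAC than in sham, Cenpa overlaps between TAC and sham in each genotype, and Cenpf is lowest in IRS1KO sham.

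The chromosomal passenger complex corrects wrong attachments and later sits at the spindle midzone. Its 4 genes, 3 of them with a mean under 10 over the sham libraries, were higher after TAC in all 3 genotypes. Aurkb (Aurora B, its kinase) had 80.8, 21.1, 93.7, 71.5 and 69.4 normalized counts in WT TAC against 0 to 4.38 in WT sham, a log2 fold change of 4.47 ± 0.50. Birc5 (survivin) and Cdca8 (borealin) guide the kinase to centromeres, with ratios of means of 30.1 and 15.4 in WT. Incenp, the scaffold, had the highest sham level of the 4 per kilobase of exon and the smallest change. Incenp had 187, 60.5, 271, 183 and 155 normalized counts in WT TAC, against a lowest, median and highest of 28.5, 34.9 and 47.1 in WT sham. All TAC values lay above all sham values, and the log2 fold changes were 2.40, 2.08 and 2.07 in IRS1KO, IRS2KO and WT.

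Anaphase onset and proteolysis held 4 genes, of which 3 rose and Pttg1 fell in each genotype. Among the 3, Ube2c had a mean under 10 over the sham libraries and had to be higher in TAC on average. Cdc20, the activator of the anaphase-promoting complex, and Ube2c, its ubiquitin-conjugating enzyme, averaged 107 ± 48.4 and 80.4 ± 39.7 normalized counts in WT TAC, against 10.96 ± 4.09 and 7.58 ± 3.85 in WT sham. Espl1 encodes separase, the protease that cuts cohesin, and had log2 fold changes of 2.52, 2.63 and 2.75 in IRS1KO, IRS2KO and WT. Pttg1 encodes securin, which inhibits separase until anaphase. Pttg1 had a lowest, median and highest of 328, 366 and 545 normalized counts in IRS1KO TAC, against 701, 826 and 941 in IRS1KO sham, and of 345, 453 and 598 in IRS2KO TAC, against 694, 794 and 924 in IRS2KO sham. In WT TAC the values were 432, 645, 385, 542 and 465, against 733, 839 and 902 in WT sham. Every TAC library was below every sham library in each genotype, the reverse of the order seen for separase. Within WT TAC, replicate 2, the lowest for the rising genes, was the highest for Pttg1. Its log2 fold changes of -1.08 ± 0.13 in IRS1KO, -0.85 ± 0.13 in IRS2KO and -0.76 ± 0.13 in WT had adjusted p of 1.55e-08, 1.09e-06 and 1.74e-05. The sham means were 2.09, 1.77 and 1.68 times the TAC means.

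Per kilobase of exon, mean levels put Pttg1 first in TAC and in sham hearts. All annotated exons of a gene were merged for this length, so the order also depends on the annotation. In WT TAC the order was Pttg1 (247), Mki67 (65.9), Cenpa (65.3), Ccnb2 (59.4) and Cdc20 (57.3), of which the 4 after Pttg1 lay within their spread of each other. In WT sham the mean level per kilobase was 414 for Pttg1, 60.9 for Cenpa, 12.4 for Cenpf, 8.46 for Incenp and 8.06 for Smc2. Pttg1, Cenpa and Cenpf together made up 11.5 ± 3.32% of the summed counts of the 44 genes in IRS1KO TAC against 69.3 ± 3.83% in IRS1KO sham. Their share was 15.6 ± 9.02% in IRS2KO TAC against 74.1 ± 1.72% in IRS2KO sham, and 20.3 ± 12.9% in WT TAC against 76.4 ± 4.60% in WT sham. None of the 3 shares exonic bases with another gene in GENCODE vM21.

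Mitotic kinesins, the microtubule motors, were 8 genes, all higher after TAC in all 3 genotypes. For 4 of the 8 the mean over the sham libraries was under 10. Kif2c (MCAK), which takes microtubules apart at kinetochores, had 70.9, 25.9, 79.3, 75.6 and 75.5 normalized counts in WT TAC, against 0 to 2.91 in WT sham with 3 libraries at 0. Its log2 fold changes, 5.35, 5.42 and 5.17 in IRS1KO, IRS2KO and WT, were the largest of the 8 in each genotype. Kif11 (Eg5) and Kif15 push spindle poles apart, Kif4 and Kif22 (Kid) are chromokinesins, and Kif20a, Kif20b and Kif23 act at the midzone and in cytokinesis. The WT log2 fold changes of these 7 ran from 2.55 for Kif20a to 3.55 for Kif23. Kif4 had 80.8, 13.4, 112, 69.5 and 86.04 normalized counts in WT TAC, against a lowest, median and highest of 4.48, 8.07 and 13.6 in WT sham. WT TAC replicate 2 fell inside the sham range, so Kif4 was the only rising gene whose groups overlapped in WT, and its groups did not overlap in IRS1KO or IRS2KO.

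Spindle assembly proteins were 4 genes, all higher, and 3 of them had a mean under 10 over the sham libraries. Tpx2, which activates Aurora A on the spindle, averaged 195 ± 95.4 in WT TAC against 7.16 ± 0.622 in WT sham, and its ratios of means were 28.1, 25.4 and 27.2 in IRS1KO, IRS2KO and WT. Nusap1 bundles spindle microtubules and had a log2 fold change of 2.57 in WT. Hmmr and Ckap2l, both spindle-binding proteins, had 5.06 and 4.97, from sham means under 3 normalized counts.

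Midzone and cytokinesis genes, 4 in number, were all higher, within a narrow span of log2 fold change from 3.61 to 4.02 in WT. Of the 4, Ect2 had a mean under 10 over the sham libraries and had to be higher in TAC on average. Anln encodes anillin, the scaffold of the contractile ring. Anln had 249.6, 86.4, 349, 242 and 195 normalized counts in WT TAC, against a lowest, median and highest of 5.48, 12.3 and 22.3 in WT sham. The TAC and sham groups were well apart, and the ratio of means was 24.1 in IRS1KO, 15.9 in IRS2KO and 17.9 in WT. Prc1 crosslinks midzone microtubules, and Ect2 and Racgap1 switch on RhoA at the cleavage site. Their ratios of means in WT were 14.2, 20.6 and 16.01.

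Chromosome structure and surface was the last group, with 5 genes, all higher after TAC in all 3 genotypes. Of the 5, Ncapg had a mean under 10 over the sham libraries and had to be higher in TAC on average. Mki67 encodes Ki-67, the standard marker of cycling cells. Mki67 had a lowest, median and highest of 677, 1014 and 1340.1 normalized counts in IRS1KO TAC, against 19.4, 47.1 and 73.4 in IRS1KO sham, and of 350.2, 999 and 1319.6 in IRS2KO TAC, against 24.4, 33.99 and 43.8 in IRS2KO sham. In WT TAC the values were 709, 199, 996, 589 and 819, against 16.5, 20.9 and 56.2 in WT sham. No sham library reached the lowest TAC library of its genotype. Its log2 fold changes of 4.45 ± 0.36 in IRS1KO, 4.61 ± 0.36 in IRS2KO and 4.43 ± 0.37 in WT had adjusted p of 1.31e-11, 7.85e-12 and 7.34e-11. The ratios of means were 21.00, 26.9 and 22.7. Top2a, the topoisomerase that untangles sister chromatids, had 468, 96.9, 659.7, 422 and 487 normalized counts in WT TAC, against a lowest, median and highest of 6.61, 15.2 and 29.1 in WT sham. Its ratio of means was 34.1 in IRS1KO, 33.4 in IRS2KO and 25.2 in WT, with groups apart in each. The condensin subunits changed by unequal amounts. Ncapg had a log2 fold change of 5.19 from a mean under 3 in WT sham, whereas Ncaph and Smc2, with WT sham means of 16.1 ± 5.29 and 44.1 ± 11.9, had 2.23 and 1.95.

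**Figure D3:**
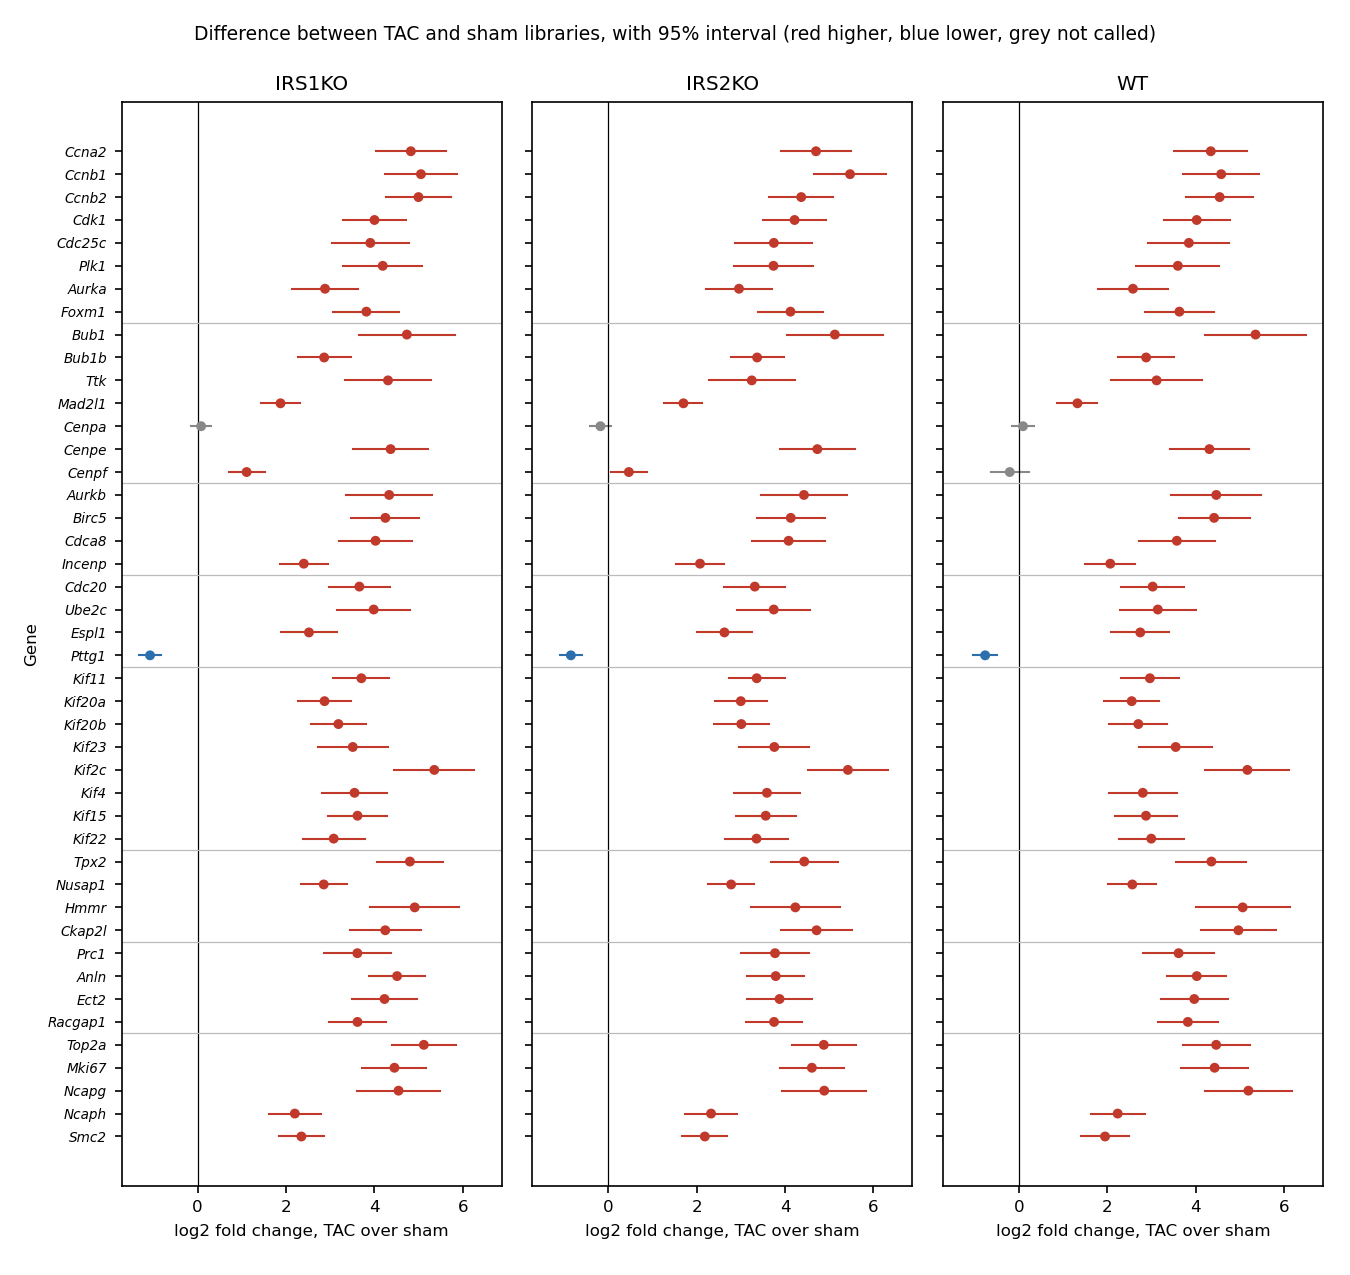
Log2 fold change of TAC over sham for each gene (points) with its 95% interval (lines) in IRS1KO, IRS2KO and WT, ordered by role and divided by grey lines. Red marks genes called higher, blue genes called lower and grey genes not called, and only Pttg1 lies on the left of 0 with a call.

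Counting could touch some of these values. In GENCODE vM21, 13 of the 44 genes share exonic bases with a gene on the opposite strand, Kif20a with Cdc23 and Ccna2 with Exosc9 among them, and 2 with a gene on the same strand (Foxm1 and Top2a). The kit marks strand, but no source used here gives the strand setting of the counting, so reads of such pairs may not be told apart. Among pseudogene copies, Ccnb1-ps averaged at most 3.58 normalized counts in any group. Ccnb2-ps averaged 6.51, 6.88 and 11.1 in IRS1KO, IRS2KO and WT TAC against 15.5, 13.7 and 12.2 in the matching sham groups, which is above Ccnb2 itself in sham (2.99, 4.44 and 2.81). How far reads of Ccnb2 and its copy were exchanged in the counting was not tested.

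The genotypes were then compared at the same operation. Both knockouts differ from WT in Cre as well as in gene loss, and IRS1KO differs from both other genotypes in the floxed gene. Parts of gene loss, Cre and floxed line cannot be told apart here. In sham hearts, IRS1KO against WT gave 2 of 44 calls, both lower, where 4.65% of all genes tested were called. Cenpf averaged 99.4 ± 40.5 in IRS1KO sham against 191 ± 46.04 in WT sham (log2 fold change -0.99 ± 0.20, adjusted p = 0.00137), and 5 of the 6 IRS1KO values were below all WT values. Cenpa averaged 262 ± 40.98 in IRS1KO sham against 357 ± 66.4 in WT sham (-0.44 ± 0.11, adjusted p = 0.0168), with overlapping groups. This second call was lost without IRS1KO sham replicate 3 (adjusted p = 0.0535), without replicate 4 (0.0582), without WT sham replicate 1 (0.0686), and with the same total per library (0.104). A further 7 genes had an unadjusted p under 0.05 and were above 0, and did not pass the adjustment. With the 3 low TAC libraries left out, which changes the spread shared by all groups, 7 of the 44 and 6.83% of genes tested were called. Those libraries were chosen for low levels of these genes, so leaving them out narrows the spread of these genes by choice. The 7 calls support nothing further.

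IRS1KO against IRS2KO in sham gave the same 2 genes, both lower, where 8.30% of genes tested were called. Cenpa had a log2 fold change of -0.60 ± 0.11 (adjusted p = 0.000572), with every IRS1KO sham value below every IRS2KO sham value. Cenpf had -0.64 ± 0.20 (adjusted p = 0.0381), a call lost in 7 of the 12 fits that left out a library, with adjusted p up to 0.124 (without IRS1KO sham replicate 2). It was also lost without a filter (0.0557), with the same total per library (0.144), in edgeR (0.102) and in DESeq2 (0.0654). These 2 comparisons share the IRS1KO sham libraries. IRS2KO against WT in sham gave 0 calls among the 44 by limma, edgeR and DESeq2, beside 0% of genes tested by limma, with 1 gene at an unadjusted p under 0.05. That gene was Hmmr, at 1.22 (0.21 to 2.23), followed by Ncapg (0.84) and Anln (0.57).

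After TAC, IRS1KO against WT gave 1 call, Cenpa, where 4.70% of genes tested were called. Cenpa was lower, at 269.7 to 282 in IRS1KO TAC against 282 to 511 in WT TAC (log2 fold change -0.45 ± 0.12, adjusted p = 0.0216), and the groups overlapped at 282. The call was lost without WT TAC replicate 2 (adjusted p = 0.0641), without WT TAC replicate 6 (0.0924), with only the 2 groups in the fit (0.101) and with the same total per library (0.125). Another 6 genes had an unadjusted p under 0.05 and were above 0. The median log2 fold change of the 44 genes was 0.54, with 42 above 0, where 50.6% of all genes tested were above 0. Most of the 44 were low or high in the same libraries, so the 42 are not separate observations. The median dropped to 0.17, with 39 above 0, when WT TAC replicate 2 was left out.

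IRS2KO against WT after TAC gave 0 calls by limma, edgeR and DESeq2, beside 0% of genes tested by limma, and no gene had an unadjusted p under 0.05. That background rests on the 3 low TAC libraries: without them 2.96% of genes tested were called, 118 higher and 287 lower, and still 0 of the 44. The smallest p belonged to Kif4 (0.66, -0.11 to 1.44), Cenpf (0.33) and Kif20a (0.48). The median log2 fold change was 0.37 with 42 above 0, -0.01 with 21 above 0 without WT TAC replicate 2, and 0.49 with 42 above 0 without all 3. With all libraries, 48.6% of all genes tested were above 0.

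IRS1KO against IRS2KO after TAC gave 0 calls by all 3 tools, where limma called 2.36% of genes tested, and 1 gene, Cenpa, had an unadjusted p under 0.05 (-0.34 ± 0.11, adjusted p = 0.127). Cenpa was called, as lower, with only the 2 groups in the fit (adjusted p = 0.0198), and its adjusted p was 0.0912 to 0.329 under the other alternatives. Pttg1 (-0.18) and Smc2 (0.35) followed. The median was 0.15 with 40 of 44 above 0, where 52.0% of all genes tested were above 0. It turned to -0.09 with 12 above 0 without IRS2KO TAC replicate 4, and was 0.04 with 24 above 0 without replicate 1. Without all 3 low TAC libraries the median was -0.33 with 1 above 0, with 0 of the 44 called and 3.61% of genes tested. Those libraries were chosen for low levels of these genes and include IRS2KO TAC replicates 1 and 4 but no IRS1KO library. A fall of this median was therefore fixed by the choice.

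The TAC response itself was compared between genotypes, as the TAC-minus-sham difference of one genotype minus that of the other. IRS1KO minus WT gave 0 calls by limma and edgeR and 1 by DESeq2, IRS2KO minus WT gave 0 by all 3 tools, and IRS1KO minus IRS2KO gave 0 by all 3. Among all genes tested limma called 0.110%, 0% and 0.409%, and without the 3 low TAC libraries 0.183%, 0.0292% and 2.63%, with 0 of the 44 called in each. The median difference over the 44 genes was 0.27, 0.20 and 0.01, and without those libraries -0.08, 0.34 and -0.45. Those libraries were chosen for low levels of these genes and none is IRS1KO, so the falls in the comparisons of IRS1KO follow from the choice. In each comparison 1 gene, Cenpf, had an unadjusted p under 0.05. Its response was 1.32 ± 0.29 larger on the log2 scale in IRS1KO than in WT (adjusted p = 0.0547, and 0.0169 by DESeq2), 0.67 ± 0.29 larger in IRS2KO than in WT (adjusted p = 0.91) and 0.64 ± 0.28 larger in IRS1KO than in IRS2KO (adjusted p = 0.366). In the fits that left out 1 library of IRS1KO or WT, the first of these passed the threshold 5 times, for example without IRS1KO sham replicate 4 (0.0129). For the other genes the differences did not pass: Mad2l1 (0.55) and Pttg1 (-0.31) came next for IRS1KO minus WT, Cenpa (-0.27) and Ccnb1 (0.89) for IRS2KO minus WT, and Anln (0.72) and Cenpa (0.26) for IRS1KO minus IRS2KO. The 3 comparisons share libraries.

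Some TAC libraries were the lowest or the highest of their group for nearly all rising genes. For the 41 genes other than Pttg1, Cenpa and Cenpf, WT TAC replicate 2 was the lowest of its group in 41 and WT TAC replicate 3 the highest in 41. IRS2KO TAC replicate 4 was the lowest of its group in 40 of 41, and IRS1KO TAC replicate 5 in 34. Summed over the 44 genes, the libraries held 5750.1 to 10101 normalized counts in IRS1KO TAC against 1627 to 1812 in IRS1KO sham, and 3634 to 10573 in IRS2KO TAC against 1701 to 1963 in IRS2KO sham. The WT TAC sums were 6383, 2675, 8911, 6335 and 6773, against 1709 to 1887 in WT sham. The TAC libraries spread more widely than the sham libraries, and every TAC sum lay above every sham sum.

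Other genes of cell division were read beside the 44. Of 53 other mitotic genes, 49 passed the filter, and 48 were higher and 1 lower after TAC in each genotype, with median log2 fold changes of 3.41, 3.29 and 3.28 in IRS1KO, IRS2KO and WT. For 35 of the 49 the mean over the sham libraries was under 10, so they passed through the TAC libraries and had to differ, and the count and median describe the genes that passed and support nothing further. The lower one, named after its value was seen, was Sgo2a, a shugoshin that protects centromeric cohesin (-0.44, -0.61 and -0.56 in IRS1KO, IRS2KO and WT). Nuf2, a kinetochore subunit, had a log2 fold change of 4.83 in WT, and Dlgap5, a spindle protein, 4.97. Pbk (4.89) and Melk (4.46), both mitotic kinases, were similar. The core subunits of the anaphase-promoting complex and cohesin, which are also used outside mitosis, changed by smaller amounts: of 22 genes, 10 were higher and 5 lower in IRS1KO, 7 and 6 in IRS2KO, and 6 and 3 in WT, with medians of 0.13, 0.03 and 0.01. Among the called ones, Cdc16 had 0.39, Cdc27 0.35, Anapc13 -0.43 and the cohesin loader Nipbl -0.30 in WT. For 0 of the 22 the mean over the sham libraries was under 10, against 35 of the 49, so the medians are of unlike selections. The background in WT was 28.3% of all genes higher and 26.6% lower.

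DNA replication genes had smaller median fold changes than the mitotic genes. Of 32 tested from 34 listed, 29 were higher in IRS1KO, 29 in IRS2KO and 23 in WT, with medians of 1.40, 1.35 and 1.14. Among all genes tested 32.4%, 31.3% and 28.3% were called higher. For 4 of the 32 the mean over the sham libraries was under 10, against 24 of the 44 mitotic genes. The medians are thus of unlike selections. Mcm5, a subunit of the replicative helicase, averaged 160.3 ± 76.05 normalized counts in WT TAC against 24.5 ± 10.6 in WT sham. Mcm10, Tyms (thymidylate synthase) and Gins2 had log2 fold changes of 3.18, 2.50 and 2.49.

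Regulators of these genes had smaller median fold changes, though only 2 of the 19 below had a mean under 10 over the sham libraries. Of 19 E2F, MuvB and B-Myb genes, 13 were higher and 4 lower in IRS1KO, 11 and 4 in IRS2KO, and 10 and 4 in WT, with medians of 0.39, 0.35 and 0.30. Among all genes tested 32.4%, 31.3% and 28.3% were called higher and 31.7%, 31.1% and 26.6% lower, so the lower calls were no more frequent than over all genes. Mybl2 (B-Myb), which with MuvB activates G2 genes, averaged 25.5 ± 13.3 in WT TAC against 3.40 ± 2.19 in WT sham (log2 fold change 2.49). E2f1 (2.07) and E2f2 (2.09), activators of S phase genes, and E2f7 (1.57), a repressor, were higher as well. Of 15 CDK inhibitors and G1 cyclins tested from 17 listed, 8 were higher and 2 lower in IRS1KO, 9 and 2 in IRS2KO, and 7 and 4 in WT, with medians of 0.31, 0.36 and 0.18, and here too the lower calls were near or below that background. Cdkn1c (p57, a CDK inhibitor) averaged 37.1 ± 16.3 in WT TAC against 110.2 ± 18.9 in WT sham, whereas the inhibitor Cdkn1a (p21) rose by 0.81 on the log2 scale in WT. The G1 to S cyclins Ccne1 and Ccne2 rose by 1.09 and 0.81 in WT.

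The summed levels of macrophage and fibroblast markers were higher after TAC in each genotype. The summed normalized counts of 12 macrophage and monocyte markers were 9037 to 20364 in IRS1KO TAC against 3699.9 to 4953 in IRS1KO sham, 7226 to 20535 in IRS2KO TAC against 4096 to 5224 in IRS2KO sham, and 9301 to 22629 in WT TAC against 3716 to 4675 in WT sham. Of these 12 markers, 11, 10 and 12 were called higher in IRS1KO, IRS2KO and WT. Among all genes tested 32.4%, 31.3% and 28.3% were called higher, which is the background for both lists here. Ccr2, a receptor of recruited monocytes, had a log2 fold change of 4.85 in WT, Itgam 3.45, Fcgr1 3.01 and Cd68 2.94. Fibroblast markers summed to 66739 to 149145 in IRS1KO TAC against 25031 to 31191 in IRS1KO sham, 51508 to 150511 in IRS2KO TAC against 29751 to 35609 in IRS2KO sham, and 62249 to 116736 in WT TAC against 27868 to 31956 in WT sham. Of 10 markers, 6, 6 and 7 were higher in IRS1KO, IRS2KO and WT, and Gsn was lower in all 3 genotypes and Dcn in both knockouts. Postn, a matrix protein of activated fibroblasts, had 4.92, and the collagens Col1a1, Col3a1 and Col1a2 had 3.58, 3.52 and 3.20. The part of these cell types in the mitotic levels was not tested.

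Endothelial and cardiomyocyte markers were mostly lower after TAC. The 10 endothelial markers summed to 8861 to 12705 in IRS1KO TAC against 15509 to 16219 in IRS1KO sham, 8739 to 14743 in IRS2KO TAC against 15900.0 to 16721 in IRS2KO sham, and 10487 to 14928 in WT TAC against 15349 to 16609.6 in WT sham. Of these, 10, 9 and 7 were called lower in IRS1KO, IRS2KO and WT. Among all genes tested 31.7%, 31.1% and 26.6% were called lower, which is the background for the lower calls of every list here. Flt1, Tie1, Kdr and Tek had -0.64, -0.53, -0.52 and -0.51 in WT. Cardiomyocyte markers summed to 516313 to 896445 in IRS1KO TAC against 1049109 to 1145632 in IRS1KO sham, 541477 to 1078432 in IRS2KO TAC against 1078754 to 1145796 in IRS2KO sham, and 628677 to 1051013 in WT TAC against 1059559.5 to 1184747 in WT sham. Of 12 markers, 7, 8 and 9 were lower in IRS1KO, IRS2KO and WT, and 1, Actc1, was higher in IRS2KO, with Myl2 at -0.95, Tnni3 at -0.89, Myh6 at -0.85 and Pln at -0.82 in WT. Of 7 smooth muscle and pericyte markers tested from 8, Cnn1 was higher in all 3 genotypes, Acta2 in IRS2KO and WT, and 4 were lower in each, with Cnn1 at 3.76 and Abcc9 at -1.25 in WT. Erythroid markers were lower for 4 of 5 tested in IRS1KO and for 5 of 5 in IRS2KO and WT. Neutrophil markers were low, 2 of 7 listed passing the filter (Csf3r 2.56 and S100a9 2.05 in WT), and Mpo was at 0 in every sham library. Only Cd4 of 10 T, B and NK cell markers passed the filter (0.90 in WT), and at least 7 of the 10 had a mean under 5 in every group.

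The 3 TAC libraries with the lowest mitotic sums stood apart in these lists too. WT TAC replicate 2, IRS2KO TAC replicate 1 and IRS2KO TAC replicate 4 held 2675, 4866 and 3634 normalized counts over the 44 genes. Their cardiomyocyte marker sums, 1051013, 946632 and 1078432, were the 3 highest of the 17 TAC libraries, and so were their endothelial sums. Their DNA replication sums, 1925, 2602 and 2534, were the 3 lowest, and the first of them lay within the range of the sham libraries. In macrophage markers they held 9301, 11045 and 7226, of which the first and last were among the 3 lowest of the 17. The part of these differences in the mitotic levels was not tested.

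**Figure D4:**
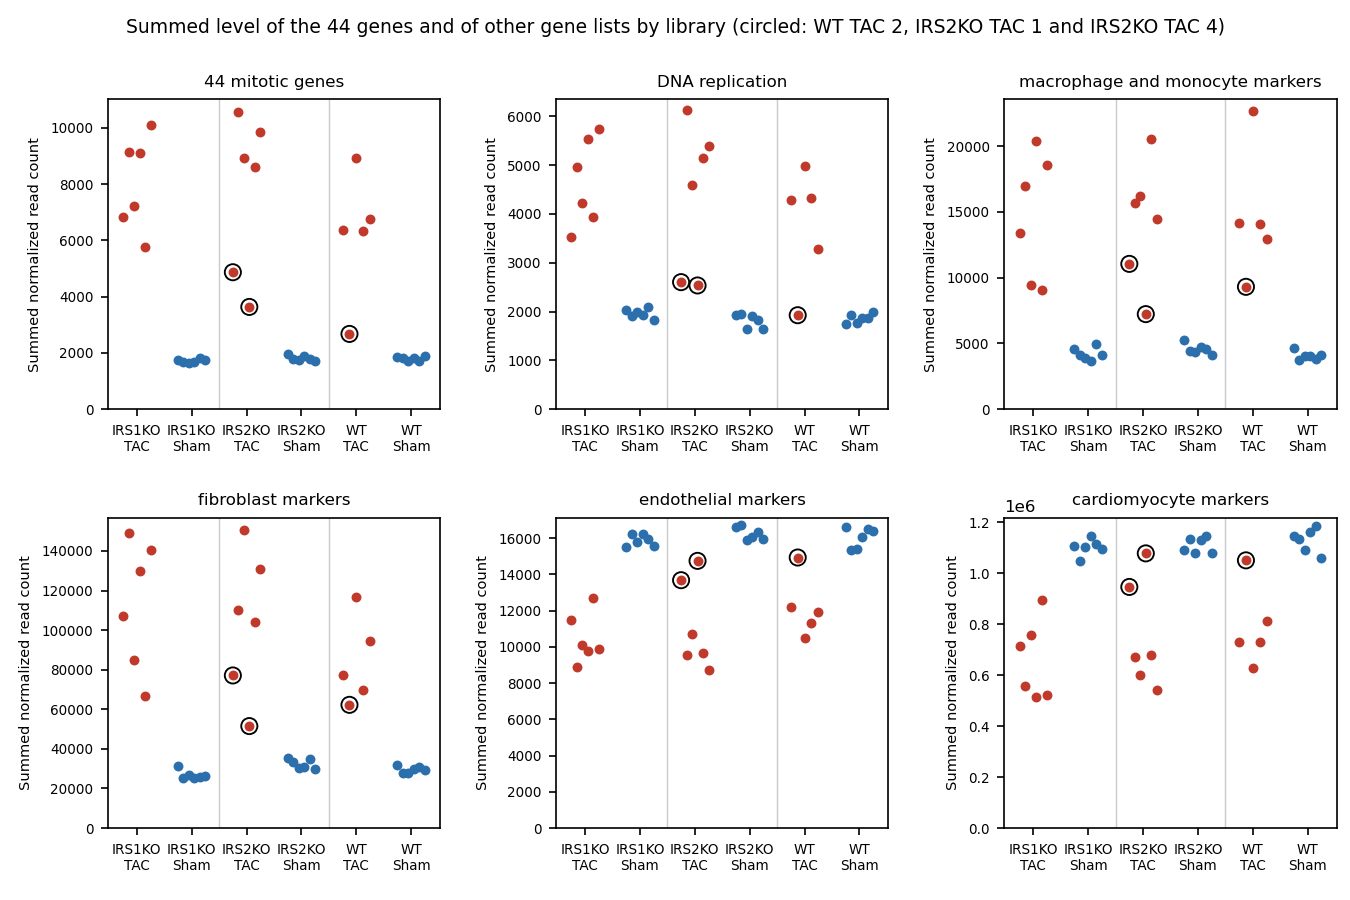
Summed normalized read counts of the 44 genes and of 5 other gene lists in each library (points, red TAC, blue sham) by group, with WT TAC replicate 2 and IRS2KO TAC replicates 1 and 4 circled. The circled libraries are the lowest TAC libraries for the 44 genes and DNA replication and the highest for cardiomyocyte and endothelial markers.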

How the data were processed

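RNA of 35 mouse heart apex libraries was read from the deposited table of 27012 genes. Per the submitters' processing notes, HISAT2 2.0.6, HTSeq 0.7.1, DESeq2 and GRCm38 were used; the annotation version and strand setting are not given in the sources used here. The authors deposited a signal per gene, read counts divided by a library size factor (normalized counts). All values (100.0%, tolerance 0.001) were whole multiples of the value of 1 read, so whole reads were recovered for the count tests. No pair of libraries in a group agreed within sampling noise, with chi-square at least 2.41 per degree of freedom in all 85 pairs.

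Symbols came from GENCODE vM21 (26886 of 27012 IDs matched) and promoters from RefSeq. Genes with a mean of at least 10 were tested as log2(value + 1) with limma 3.58.1 in R 4.3.3 (6 group means, trend, robust), with Benjamini-Hochberg adjustment within each comparison and a threshold of 0.05. Fold changes are on the log2(value + 1) scale, which understates low genes; intervals are 95%. edgeR 4.0.16 and DESeq2 1.42.0 on recovered reads were among the alternatives. The procedure was tested on simulated data. All 44 genes could be named; for genotype comparisons, those called or else the 3 with the smallest p were. Up to 4 called genes were named from each other list. The genes and lists were chosen with earlier results of these data known.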

Additional observations from a re-analysis of the deposited data

Results flagged for a closer look

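Each group of 5 or 6 libraries was checked for a library far from the others, over 270 groups (the 44 genes and their sum in 6 groups). A library stood apart where its gap to the nearest other exceeded Dixon's 95% critical value, which chance alone gives in about 1 in 20 groups, and 15 (5.56%) did so. WT TAC replicate 2 was the lowest of its group for Ccnb2 (28.8 normalized counts), Kif20a (37.4) and Kif2c (25.9). It was also the lowest of its group for all 41 genes other than Pttg1, Cenpa and Cenpf. IRS1KO TAC replicate 5 was the lowest for Ttk (20.8).

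Among sham libraries, WT sham replicate 6 was the highest for Cdc25c (0.969), Bub1 (4.85) and Cenpe (14.5), and WT sham replicate 2 for Ncapg (3.31). The Cdc25c and Bub1 flags rest on 1 and 5 reads, with 5 WT sham libraries at 0. Ncapg was likewise at 0 in all other WT sham libraries. With the others at 0, any reads in 1 library are flagged by this rule. In IRS1KO sham, replicate 2 was the highest for Ccna2 (17.4) and Kif20a (26.15), replicate 1 for Ttk (6.46) and Ncaph (30.16), replicate 4 for Mad2l1 (50.98) and replicate 5 for Top2a (38.4), while replicate 4 was the lowest for Bub1b (18.35).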

How the results depend on the processing

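The counts of genes higher after TAC stayed within 1.5 times under every alternative run, the lowest being 29, 29 and 28 in IRS1KO, IRS2KO and WT with a mean filter of 50, which tests fewer genes. For IRS1KO against WT in sham the 2 calls became 1 with the same total per library and 1 to 3 on leaving out 1 library. With the 3 low TAC libraries left out (chosen after seeing the data, for low mitotic levels) they became 7, beside 6.83% of genes tested. For IRS1KO against IRS2KO in sham the 2 became 1 without a filter, with the same total, in edgeR and in DESeq2, and 1 to 2 on leaving out 1 library. For IRS1KO against WT after TAC the 1 call became 0 with the same total and with only the groups compared, and 0 to 2 on leaving out 1 library. For IRS1KO against IRS2KO after TAC the count of 0 became 1, Cenpa, with only the groups compared. For the TAC response of IRS1KO minus that of WT it became 1 with a pseudocount of 5 and in DESeq2, and 0 to 1 on leaving out 1 library. The cause was not tested.

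Directions reversed in 4 fits of single genes: Cenpa, TAC against sham in WT, at -0.019 without WT TAC replicate 6 (range -0.019 to 0.195 over libraries left out); Cenpf, TAC against sham in WT, at 0.049 and Cenpa, TAC against sham in IRS2KO, at 0.16 with the same total per library; and Smc2, IRS1KO against IRS2KO after TAC, at -0.045 with the 3 low TAC libraries left out. Replicate numbers were not taken as pairs, because correlations of same-numbered deviations were not all over 0.1. That rule cannot exclude effects shared by same-numbered libraries: the correlations were 0.068 to 0.35 between IRS1KO and IRS2KO sham. With the replicate block the counts among the 44 were 42, 42 and 41 higher (IRS1KO, IRS2KO and WT) after TAC. In the comparisons between genotypes 0 to 2 were called, as without it. Over all genes, calls for IRS1KO against WT after TAC went from 276 higher and 367 lower to 390 and 545. Depth limits the genes with a sham mean under 3, for which no ratio is given.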
